A study of Glycyrrhiza uralensis with 24 samples.

Results

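The genes described here are 100 gene IDs of Glycyrrhiza uralensis, a licorice legume, that stood higher in roots after 2 h in salt without meeting the same criterion at 12 h, and that met no such criterion in aerial parts at 2 h or 12 h. They were chosen by their own expression values, out of 34445 IDs in the deposited tables. The values are TPM (a length-scaled share of a library's transcripts), and rows of 1 ID were summed. A rise required all 3 salt libraries to lie above all 3 controls of the organ, a ratio of group means, each with 1 TPM added, of at least 3, and a larger mean of at least 10 TPM. In roots 298 IDs met this at 2 h, of which 161 met it again at 12 h and 137 did not. Among those 137, 37 were left out because they rose or fell by the same criterion in aerial parts, which left the 100 genes. The values at 2 h and 12 h and the controls are therefore descriptions of the choice, and only the 6 h libraries were not used in it.

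The study asked how salt changes gene expression in the licorice seedling. RNA was sequenced from stems and leaves (aerial parts) and from roots of 60-day seedlings that had been held in hydroponic culture. Controls at 0 h were kept in distilled water, and salt groups received 150 mM NaCl in MS nutrient solution for 2, 6 or 12 h, in a protocol whose wording also speaks of drought. There were 8 groups of 3 libraries, 24 libraries in all. Salt, the nutrient medium and the different title pattern of the control libraries differ together between controls and salt groups, so they cannot be told apart. The labels give no time of day, which may differ between the groups as well. The labels do not say whether the 3 libraries of a group came from separate plants, so p-values measure only the spread between these samples. Each organ was taken whole, and fewer cells of a type and less RNA per cell cannot be told apart in such bulk samples. The files do not pair IDs with gene names, so no gene function, organ marker or sequence is given, and IDs are printed only as examples. Read depth is unknown from TPM. The listed IDs held 39.1% to 51.1% of the TPM scale per library, and 5642 IDs were at 0 in every library.

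As background, roots meet the salt in the medium first. High NaCl lowers the water potential around them within minutes and loads their cells with sodium more slowly. Calcium signals, abscisic acid and the salt overly sensitive (SOS) ion transport pathway act early in this response in plants such as Arabidopsis, and many of its transcripts are known to rise transiently. Which of the 100 IDs belong to such pathways was not analysed here.

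At 2 h the 100 genes ranged from weakly to abundantly expressed, with group means from 10.1 to 1619 TPM in roots and a median of 32.0 TPM. Their control means ran from 0 to 463 TPM with a median of 5.27 TPM. The mean lay between 10 and 20 TPM for 35 genes, between 20 and 100 TPM for 42 and above that for the others. The ratio of 2 h to control had a median of 4.68 (quartiles 3.47 and 7.72), and 54 genes lay between 3 and 5, 25 between 5 and 10 and 21 at 10 or more. Most of the set was thus chosen on a change not far above the threshold. By limma, 30 of the 100 had a Benjamini-Hochberg adjusted p under 0.05, beside 1.54% of all 16138 IDs tested, and nothing is read from this because the same contrast chose the genes. The number was 30, 6 and 6 without 2 h replicate 1, 2 and 3, and 4, 8 and 18 without control replicate 1, 2 and 3. The calls over all IDs moved too. They were 249 in the full fit, then 198, 40 and 56, and 32, 65 and 168, in the same order.

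The values just inside and just outside the threshold show how little separates members from non-members. Glyur000563s00023588 had 5.27, 12.8 and 5.12 TPM in the controls and 34.0, 16.4 and 25.4 TPM at 2 h, a ratio of 3.01. Glyur001694s00031559 had 0.79, 5.72 and 7.43 TPM against 7.53, 10.2 and 30.6 TPM, a ratio of 3.03. Both were included. Glyur000132s00015963, with 2.32, 5.10 and 6.20 TPM against 15.8, 22.6 and 8.37 TPM, missed the threshold at 2.998. Glyur000231s00022063, with 3.76, 7.5 and 8.12 TPM against 12.7, 19.3 and 31.9 TPM, missed it at 2.99.

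**Figure D1:**
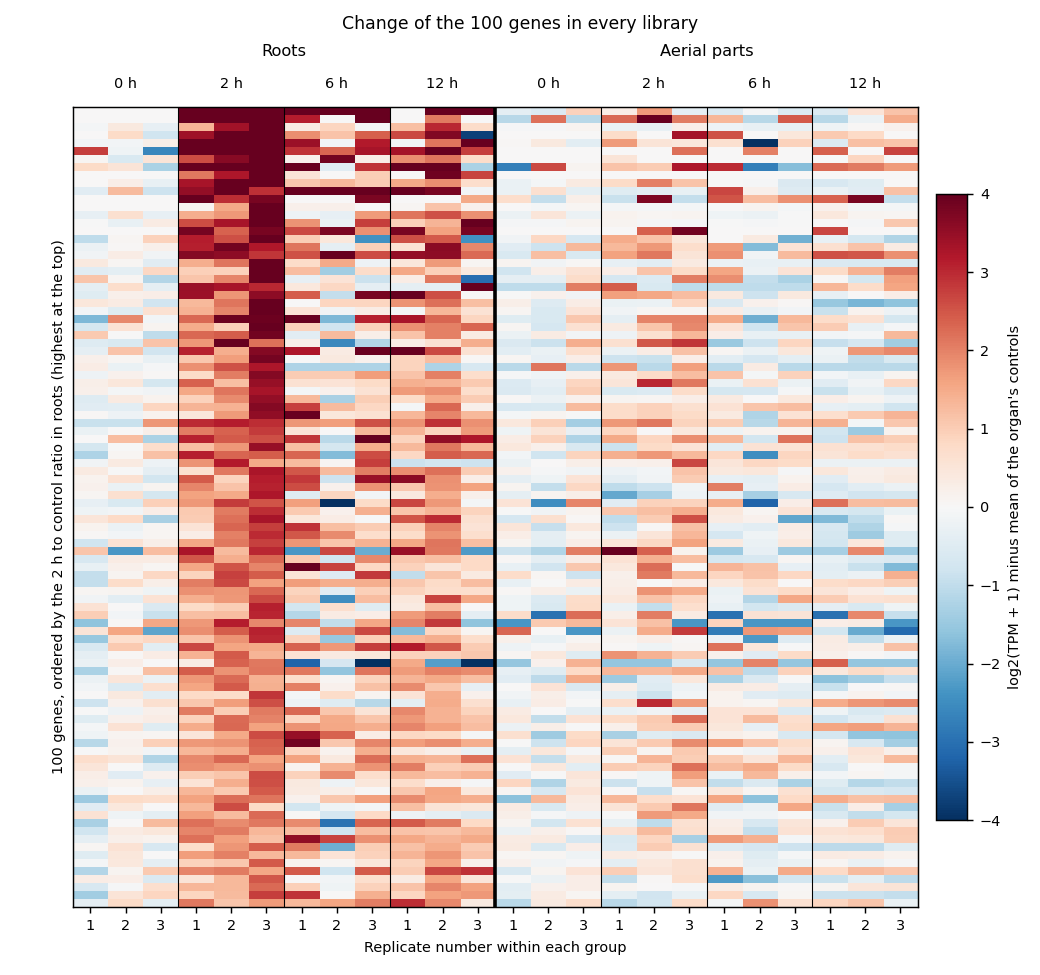
Heat map of log2(TPM + 1) minus the mean of the organ's 3 controls for the 100 genes (rows, highest 2 h ratio at the top) in the 24 libraries (columns, by organ, time and replicate). Root 2 h columns are raised throughout, as the choice requires, 6 h and 12 h root columns are raised in most rows, and the column of root 6 h replicate 2 is the palest of the salt-treated root columns.

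The 3 root libraries at 2 h did not share the rise equally. The genes together summed to 7915, 8522 and 20339 TPM at 2 h, against 2224, 2458 and 1725 TPM in the controls. As a share of the listed TPM these were 1.85%, 2.06% and 4.90% against 0.436%, 0.520% and 0.344%. Replicate 3 thus held more than the other libraries at 2 h put together. The median change over the 100 genes against the control mean was 1.70, 2.07 and 2.94 on the log2(TPM + 1) scale in replicates 1, 2 and 3. Replicate 3 was the highest of the 3 libraries in 59 of the 100 genes, and in 28.7% of the 6083 IDs with a root 2 h mean of at least 10 TPM, the level the genes had to reach. It was at least 2 times both other libraries in 40 genes, against 6 for replicate 2 and 2 for replicate 1, while these shares among the 6083 IDs were 5.75%, 1.89% and 2.65%. The highest 2 h library was a median 3.28 times the lowest for the 100 genes and 1.59 times for the 6083 IDs. The rule used the 2 h group mean, which 1 very high library can raise. A wider spread than among the 6083 IDs is therefore favoured by the choice, and these values only describe the set. The direction at 2 h held in every library by the choice, whereas its size differed between the libraries. With replicate 3 left out of the rule, 97 IDs would have been chosen, of which 59 were among the 100. Without replicate 1 the rule chose 187 IDs, which included 93 of the 100, and without replicate 2 it chose 145, which included 86.

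The most abundant of the genes at 2 h illustrate both an even and an uneven rise. Glyur000519s00019093 had 385, 624 and 379 TPM in the root controls and 1505, 2179 and 1173 TPM at 2 h, so all 3 libraries moved alike (463 ± 139.8 TPM against 1619 ± 513 TPM, SD, n = 3). It then had 729.8, 471 and 844 TPM at 6 h, which overlapped the controls, and 1147, 1282 and 1039 TPM at 12 h, which did not. Its ratio to control was 3.49, 1.47 and 2.50 at the 3 times. Glyur000137s00013331 had 243, 120.5 and 49.2 TPM in controls and 244, 437 and 3348 TPM at 2 h. The first of its 2 h libraries barely cleared the highest control, and the third accounted for most of the group mean of 1343 ± 1739 TPM. At 6 h it had 89.1, 164 and 62.1 TPM, inside the control range.

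The 2 highest ratios belonged to genes that were listed at 0 in all 3 root controls. In all, 6 of the 100 genes were listed so, and no fold is given for these. Glyur001944s00035546 had 1128, 94.6 and 70.9 TPM at 2 h, 1047, 1440.0 and 77.3 TPM at 6 h and 0, 206 and 1920.0 TPM at 12 h. At 2 h and 6 h every library stood above the controls, whereas at 12 h one library was again listed at 0, which is why the gene was not counted as raised at 12 h although its mean there was 709 TPM. In aerial parts its highest value in any library was 3.75 TPM. Glyur000312s00022001 had 62.7, 56.9 and 107 TPM at 2 h, 7.89, 0 and 45.7 TPM at 6 h and 0, 3.20 and 0 TPM at 12 h. This was the course the choice describes, high at 2 h and nearly gone at 12 h, with one 6 h library already listed at 0.

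**Figure D2:**
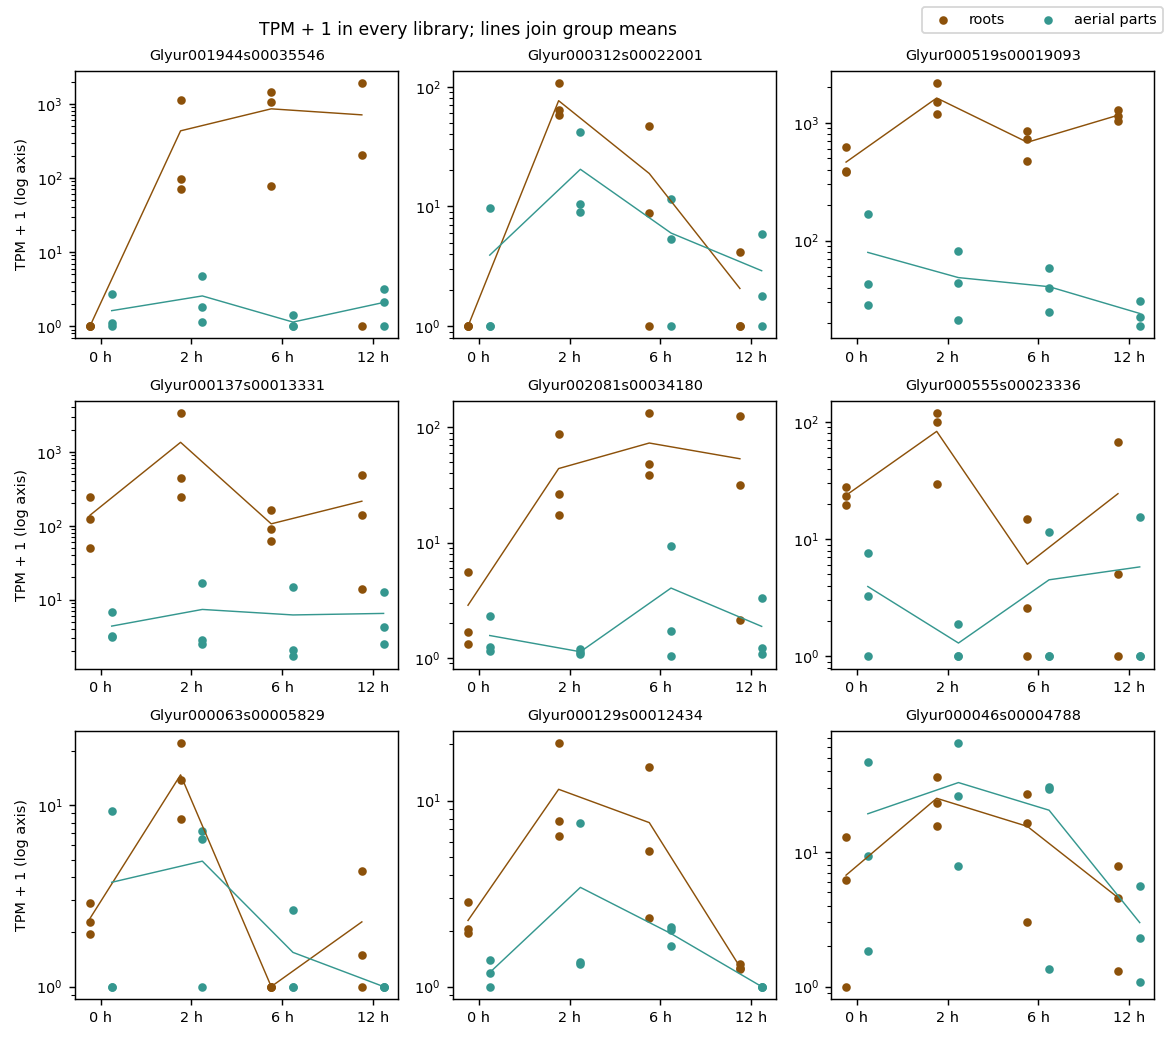
TPM + 1 on a log axis in every library for the 9 genes named by 2 h ratio, 2 h mean, 6 h rise, 6 h fall and lowest 12 h ratio, at 0, 2, 6 and 12 h, with roots in brown and aerial parts in teal, points for libraries and lines through group means. The root libraries of 1 group often lie more than 10 times apart, for example 70.9 to 1128 TPM at 2 h for Glyur001944s00035546.

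At 6 h, the one time the choice did not use, most of the genes still stood above the root controls, and few passed the test. The mean was above the control mean in 92 of 100, with a median ratio of 2.11, against 0.917 for the 6083 IDs that reached the 2 h level. In 27 genes all 3 libraries lay above all 3 controls, beside 6.38% of the 6083 IDs, and in 2 genes all 3 lay below, beside 16.9%. By the full 3-fold criterion 13 genes were raised at 6 h, beside 1.94% of the 6083 IDs, and 1 was lowered. The median log2 change fitted by limma was 0.90 for the 100 genes, -0.14 for the 6083 IDs and -0.06 for all IDs tested. Scaling each library to its listed total moved the median of all IDs to 0.14 and that of the 100 genes to 1.13, so their distance changed little. The controls entered both the choice and this comparison, so the ratios at 2 h and 6 h are not independent of each other.

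At an adjusted p under 0.05 by limma, 2 of the 100 genes rose at 6 h, beside 0.322% of the 16138 IDs tested, and none fell. At an unadjusted p under 0.05 there were 29 of the 100 genes and 16.9% of all IDs, in either direction. The first was Glyur000301s00024491, with 5.64, 8.99 and 8.58 TPM in controls, 38.6, 25.9 and 18.4 TPM at 2 h, 99.7, 54.6 and 29.2 TPM at 6 h and 23.98, 21.2 and 23.7 TPM at 12 h. Every salt library was above every control, with the highest group mean at 6 h, and the log2 change at 6 h was 2.69 (SE 0.40, limma adjusted p = 0.0267). Glyur004266s00042147 had 0, 0.35 and 0 TPM in controls, 12.98, 12.2 and 7.07 TPM at 2 h, 5.52, 19.9 and 5.75 TPM at 6 h and 11.7, 12.3 and 4.37 TPM at 12 h. It too was above the controls in all 9 salt libraries, at 3.14 (SE 0.51, limma adjusted p = 0.0313), a value that depends on the pseudocount because 2 controls were at 0. Neither call held in every setting. Without 6 h replicate 1 their limma adjusted p-values were 0.0681 and 0.0744.

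The largest 6 h rises among genes whose libraries did not overlap the controls were not called. Besides Glyur001944s00035546 (limma adjusted p = 0.1005), this was Glyur002081s00034180, with 0.68, 4.6 and 0.31 TPM in controls and 25.7, 86.8 and 16.5 TPM at 2 h. At 6 h it had 46.8, 37.6 and 133 TPM and at 12 h 125, 31.0 and 1.15 TPM, so that one 12 h library was back in the control range. Its log2 change at 6 h was 4.76 with an SE of 1.25 (limma adjusted p = 0.108). The 2 genes with all 6 h libraries below the controls were Glyur000555s00023336 and Glyur000063s00005829. The first had 18.6, 26.9 and 22.6 TPM in controls, 28.5, 118 and 99.8 TPM at 2 h, 1.57, 13.8 and 0 TPM at 6 h and 66.3, 4.09 and 0 TPM at 12 h, with a 6 h change of -2.80 (limma adjusted p = 0.325). The second had 1.89, 0.95 and 1.28 TPM in controls, 7.36, 12.8 and 20.9 TPM at 2 h and then 0 in each 6 h library, with limma giving an adjusted p of 0.272.

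One root library stood apart at 6 h. Replicate 2 lay within or below the control range in 56 of the 100 genes, against 30 for replicate 1 and 26 for replicate 3. The shares among the 6083 IDs were not computed for these numbers. The median change of replicate 2 against controls was 0.22 on the log2 scale, against 1.06 and 1.02 in the other libraries. It was the lowest of the 3 in 57 of the 100 genes and in 48.9% of the 6083 IDs. Replicates 1 and 3 were the lowest in 29.2% and 21.9% of the 6083 IDs, so replicate 2 was most often the lowest there too. Replicate 2 was also the highest in 37.6% of the 6083 IDs, against 25.6% and 36.9% for replicates 1 and 3. Among the 6083 IDs it thus departed in both directions. Among the 100 genes it was the highest in 20. Its aerial counterpart, which carries the same title number, also had the lowest median of its group over the 100 genes, at 4.40 TPM against 8.21 and 8.38 TPM. That aerial library was the lowest in 49 of the 100 genes and in 32.7% of the 6083 IDs. It was the highest in 21 of the 100 genes and in 47.1% of the 6083 IDs. With root replicate 2 left out, 8 of the 100 genes were called higher at 6 h by limma, beside 2.31% of the IDs then tested, and the median log2 change was 1.21. Replicates 1 and 3 both lay above all controls in 62 genes, beside 19.7% of the 6083 IDs. What set this library apart was not tested.

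**Figure D3:**
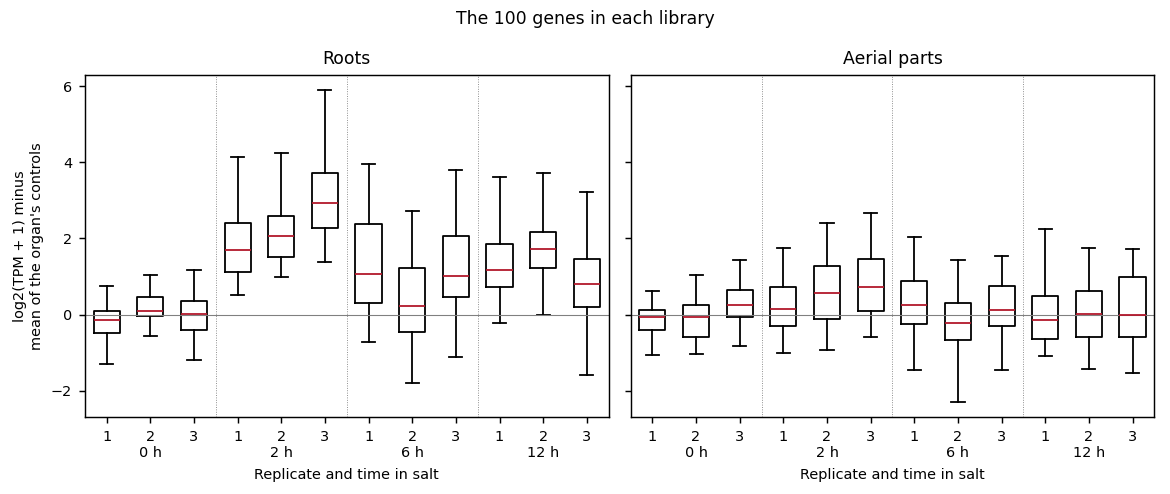
Box plots over the 100 genes of log2(TPM + 1) minus the organ's control mean, for each library of roots (left) and aerial parts (right), with the median in red, boxes to the quartiles and whiskers to the 5th and 95th percentiles. Root medians are 1.70 to 2.94 at 2 h, 0.22 to 1.06 at 6 h and 0.80 to 1.71 at 12 h, and aerial medians stay between -0.23 and 0.72.

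A lower level after 2 h was common in direction and rarely called. Since the 2 h libraries chose the genes for being high, a lower level at other times is favoured by the choice. All 3 libraries at 6 h were below all 3 at 2 h in 43 genes, beside 10.4% of the 6083 IDs, and 13 genes had a 6 h mean at or above their 2 h mean. The genes held a median 47.0% (quartiles 13.05% and 75.9%) of their 2 h log2 rise at 6 h, and 8 had gone below the control mean. By limma 2 of 100 were called lower at 6 h than at 2 h, beside 0.031% of all IDs, and 51 had an unadjusted p under 0.05, beside 9.54% of all IDs. One was Glyur000063s00005829, given above (a log2 change of -3.77, SE 0.53, limma adjusted p = 0.0278). The other was Glyur004402s00039609, with 28.8, 50.9 and 105 TPM at 2 h and 5.40, 6.46 and 5.20 TPM at 6 h, a log2 change of -3.04 (SE 0.44, limma adjusted p = 0.0305). The latter remained above its controls of 2.09, 2.69 and 1.46 TPM at 6 h in every library. No such call was left when 2 h replicate 2 or 3, or 6 h replicate 1 or 2, was left out, and 5 were made without 6 h replicate 3.

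Most of the genes were still above the controls at 12 h, so missing the 12 h criterion did not mean a return to the control level. The rule used the 2 h, 12 h and control libraries, so these values only describe the set. The choice favours genes that were low in root controls, which raises counts above the controls. The 12 h mean exceeded the control mean in 96 of 100 genes, with a median ratio of 2.63 (quartiles 1.86 and 3.35), and 70 were at least 2 times the control. In 49 genes all 3 libraries at 12 h lay above all 3 controls, beside 16.1% of the 6083 IDs. The genes held a median 60.6% (quartiles 37.4% and 81.1%) of their 2 h log2 rise at 12 h. They missed the 12 h criterion for different reasons. For 67 the ratio was under 3, and 38 of those had every library above the controls. For 22 the ratio was at least 3 and the libraries overlapped the controls. The remaining 11 met the ratio and did not overlap, and had a mean under 10 TPM. None was lowered by the criterion, 4 were below the control mean, and 8 had a 12 h mean at or above that of 2 h.

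A 12 h level below every 2 h library was seen in a minority. All 3 libraries at 12 h were below all 3 at 2 h in 23 genes, beside 7.97% of the 6083 IDs. The choice favours this count, and it does not measure a return to the control level. Glyur000067s00006359, for example, had 24.2, 21.0 and 20.5 TPM at 12 h, above its root controls of 13.3, 13.6 and 11.0 TPM. The lowest ratio to control, 0.563, was that of Glyur000129s00012434, with 1.03, 1.84 and 0.93 TPM in controls and 6.72, 19.3 and 5.42 TPM at 2 h. It had 4.33, 1.34 and 14.1 TPM at 6 h and 0.24, 0.33 and 0.26 TPM at 12 h, which was under every control. Glyur000046s00004788 followed at 0.682, with 5.19, 12.0 and 0 TPM in controls, 14.5, 22.3 and 35.2 TPM at 2 h, 2.01, 15.3 and 26.1 TPM at 6 h and 0.30, 6.86 and 3.58 TPM at 12 h. Its 12 h values lay within the range of its controls. The mean was higher at 12 h than at 6 h in 71 genes. Limma called none of the 100 in either direction, beside 0.0806% of all IDs, and the 10 genes at an unadjusted p under 0.05 are close to the 9.26% of all IDs. The fitted log2 change from 6 h to 12 h was above 0 in 74 genes with a median of 0.38, and without 6 h replicate 2 in 51 genes with a median of 0.035, so this difference between the times rested on that library. Without 6 h replicate 3, 1 gene was called lower at 12 h than at 6 h, beside 1.21% of all IDs.

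**Figure D4:**
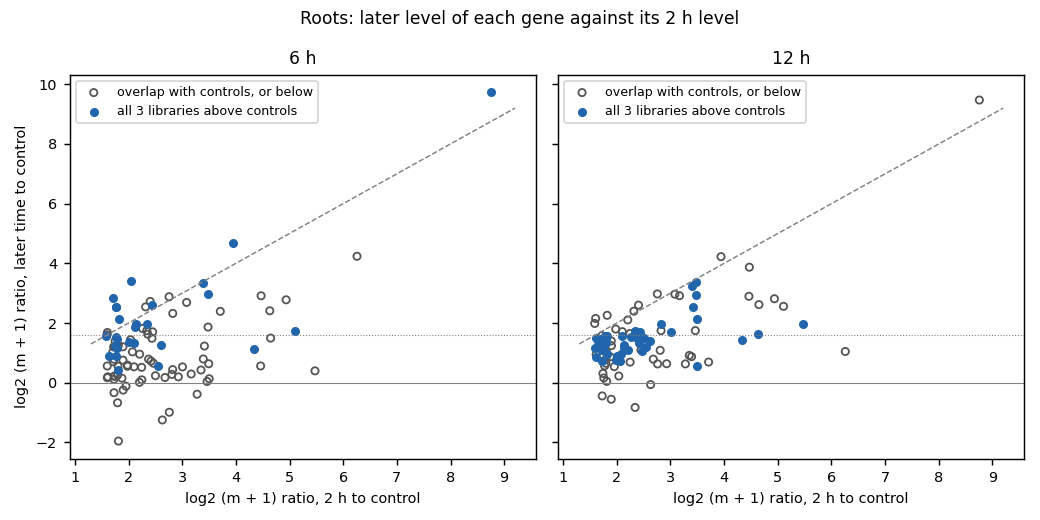
Log2 ratio of group means (each plus 1 TPM) to control at 6 h (left) and 12 h (right) against that at 2 h, for the 100 genes in roots; the dashed line marks equal ratios, the dotted line the 3-fold threshold and filled points genes whose 3 libraries all exceeded the controls. Most points lie under the dashed line and above 0, with 27 filled points at 6 h and 49 at 12 h.

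Missing the aerial criterion at 2 h did not mean an unchanged aerial level. The rule used the aerial 2 h and control libraries, so the values here only describe the set. In aerial parts 73 of the 100 genes had a 2 h mean above the control mean, with a median ratio of 1.55 against 0.900 for the 6083 IDs, although the choice had removed all that met the full criterion there. The median change was 0.15, 0.57 and 0.72 on the log2 scale in the 3 aerial libraries at 2 h. In 17 genes all 3 libraries lay above all 3 aerial controls, beside 11% of the 6083 IDs, and the ratio was at least 2 in 32 genes and at least 3 in 8. By limma, at an adjusted p under 0.05, 4 of the 94 genes tested were higher and 0 lower. Of all 15744 IDs tested, 427 were higher and 633 lower. The highest aerial ratio, 6.88, was that of Glyur001016s00027702, named after its values were seen, which was listed at 0 in the 3 aerial controls and had 0, 4.21 and 13.4 TPM at 2 h, so that one library did not differ from the controls. Glyur000312s00022001, described above for its roots, had 0, 8.77 and 0 TPM in aerial controls and 9.41, 40.9 and 8.07 TPM at 2 h, which overlapped.

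At 6 h and 12 h the median gene lay near its control level in aerial parts. The median ratio was 1.10 at 6 h and 1.01 at 12 h, and the 3 libraries at 6 h lay above all controls in 4 genes, beside 4.47% of the 6083 IDs, and below them in 4, beside 10.7%. Of the 94 genes that passed the filter on low values, limma called none at 6 h in either direction. The share called over all 15744 IDs was likewise 0%, while 4 of the 94 genes and 11.5% of all IDs had an unadjusted p under 0.05. The genes were not silent in aerial parts, since 59 reached a mean of 10 TPM in some aerial group and 7 stayed under 1 TPM in all of them.

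Whether the 6 h response was larger in roots than in aerial parts was tested as the difference of the changes from control. The root and aerial controls entered both the choice and this difference, so a value above 0 is favoured by the choice. The difference was above 0 in 87 of the 100 genes, with a median of 0.74 on the log2 scale against 0.04 for all IDs. No gene of the 100 was called by limma, beside 0.0538% of the 16718 IDs tested, and 15 of the 100 and 7.65% of all IDs had an unadjusted p under 0.05. The lowest adjusted p among the 100 was 0.256, for Glyur001944s00035546. A difference between organs in the 6 h response was therefore not shown for any single gene of the set.

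The level of the genes in roots against aerial parts at 6 h used only libraries that played no part in the choice. The main fit did not use the title numbers shared by root and aerial libraries as pairs, and a paired fit is given as an alternative. Of the 95 genes that passed the filter, 24 were higher in roots (25.3%) and 4 were lower (4.21%) by limma. Over all IDs these shares were 9.51% and 8.83%, and over the 6072 tested IDs with a root 2 h mean of at least 10 TPM they were 19.1% and 5.47%. Against IDs that reached that 2 h level in roots, the excess of root-high genes was thus small. The median log2 difference, roots minus aerial parts, was 0.80 for the genes, 0.42 for the IDs that reached that level and 0.22 for all IDs. Leaving out 1 library at a time gave 17 to 29 genes higher in roots, and 588 to 1266 of the IDs that reached that level. The small excess did not hold in every setting, as given in the section on processing.

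The lowest p-values among the root-high genes were those of Glyur000334s00019184 and Glyur000519s00019093. Glyur000334s00019184 had 57.7, 91.6 and 68.0 TPM in roots and 4.07, 7.36 and 4.54 TPM in aerial parts at 6 h, a log2 difference of 3.55 (SE 0.30, limma adjusted p = 0.000662). It was already higher in roots in the controls, with 21.9, 35.3 and 38.6 TPM against 3.66, 0.77 and 4.17 TPM. Glyur000519s00019093, at 729.8, 471 and 844 TPM in roots, had 23.7, 38.3 and 57.1 TPM in aerial parts (4.11, SE 0.38, limma adjusted p = 0.000924). The groups lay far apart in both genes. Glyur001944s00035546 had the largest difference, 8.77 (SE 1.07, limma adjusted p = 0.00261), with aerial values of 0, 0.41 and 0 TPM.

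The 4 genes lower in roots at 6 h were well expressed in aerial parts in every group. Glyur000031s00004424 had 36.4, 33.2 and 28.7 TPM in roots and 133, 103 and 149 TPM in aerial parts (-1.93, SE 0.22, limma adjusted p = 0.00211). Glyur002584s00042058 had 4.04, 10.9 and 14.7 TPM in roots and 85.3, 102 and 59.8 TPM in aerial parts (-3.06, SE 0.46, limma adjusted p = 0.00607). In neither did the organs overlap. The latter went in roots from 5.40, 3.63 and 2.20 TPM to 15.5, 13.9 and 15.3 TPM at 2 h, and in aerial parts had 34.6, 47.2 and 25.8 TPM in controls and 71.7, 65.9 and 163 TPM at 2 h. Its libraries at 2 h thus lay above the controls in both organs, and only the 3-fold threshold kept its aerial change from counting. The others were Glyur000207s00015917 and Glyur000363s00015356. In the controls, 22 of the 100 genes had all 3 root libraries above all aerial ones, beside 39.1% of the 6083 IDs, and 22 had them all below, beside 11.7%. At 6 h these numbers were 36, beside 35.2%, and 7, beside 9.8%, so the counts at 6 h were near the shares among the 6083 IDs. The choice favours genes that were low in root controls, so the control counts only describe the set. The 6083 IDs share with the genes only a root 2 h mean of at least 10 TPM.

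**Figure D5:**
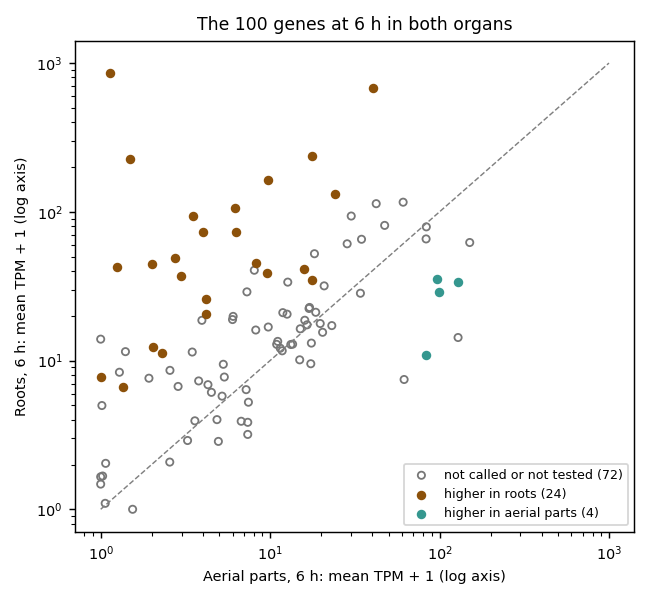
Mean TPM + 1 of the 100 genes at 6 h in roots against aerial parts, on log axes, n = 3 libraries each; brown points were called higher in roots (24), teal points higher in aerial parts (4), and the dashed line marks equal levels. The brown points lie above the line at aerial means mostly under 25 TPM, and the teal points have aerial means near 100 TPM.

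Some of the genes followed each other closely from library to library, including where replicates of 1 group disagreed. Glyur000596s00021323 and Glyur000986s00028872, picked after their values were seen as the pair with the most similar log2 values over the 24 libraries, are an example. Glyur000596s00021323 had 19.1, 56.0 and 14.2 TPM in root controls, 218, 69.5 and 333 TPM at 2 h, 245, 31.7 and 401 TPM at 6 h and 523, 162 and 38.6 TPM at 12 h. Glyur000986s00028872 had 6.58, 9.40 and 3.09 TPM, then 36.5, 11.6 and 59.0 TPM, 48.0, 2.87 and 74.6 TPM, and 82.7, 23.3 and 7.17 TPM. In both, replicate 2 was the lowest at 2 h and at 6 h, and replicate 1 was the highest at 12 h. They are 1 of 4950 pairs of the 100 genes, and their likeness rests on the same libraries, so it is given without a test.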

How the data were processed

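Total RNA libraries of 8 groups, 3 each, were analysed. The authors deposited 1 table per library with TPM values, per the file headers (38135 rows for 34445 IDs, 2751 with several rows). Tools listed in the submitters' processing notes, without roles, are DESeq2, edgeR, fastp, HISAT2, RSEM and StringTie. Their versions, the genome build and the gene models used are not given in the sources used for this text. Counts had been allowed for in the plan, and since the values were TPM, limma 3.58.1 (R 4.3.3, mean-variance trend, two-sided) was run on log2(TPM + 1) for IDs that averaged at least 0.5 TPM in the fitted libraries, with Benjamini-Hochberg adjustment over all IDs tested. On this scale the pseudocount understates changes of low genes. The rule for members was applied in Python 3.11.15, and 7 of the 100 genes sum several rows. Members and lists were chosen with earlier results of these data known. Root and aerial salt libraries share numbers in their titles: residuals of same-numbered libraries correlated at 0.198 to 0.567 over 16718 IDs, so the numbers were taken as pairs, which come from the titles; controls share no number. Replicates are numbered within groups in accession order. IDs named were up to 2 per direction for the 2 h ratio, 2 h mean, 6 h change without overlap, 12 h ratio, organ p-value at 6 h and the 3-fold threshold, beside counts of 5 or fewer and those stated. The test was also run on simulated data in which the residuals of each ID were shuffled separately. Shifts shared by a whole library were thereby removed, so this run cannot show how such shifts affect the calls. Alternatives were pseudocount, filter, scaling, libraries in the fit, a replicate block, the rule's thresholds and each library left out.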

Additional observations from a re-analysis of the deposited data

How the results depend on the processing

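Counts of the 100 genes with an adjusted p under 0.05 by limma depended on single libraries in roots. The number higher at 6 h than in controls was 2, ranged from 0 to 8 with each library left out (0 without 6 h replicate 1, control replicate 1 or control replicate 2, 4 without 6 h replicate 3 and 8 without 6 h replicate 2), and was 1 with a pseudocount of 5 TPM, 0 with no filter and 0 with only the 6 libraries compared. Over all IDs tested, the number higher was 52 in the main fit and 7 to 368 with each library left out. It was 20 with a pseudocount of 5 TPM, 4 with no filter and 0 with only the 6 libraries compared. The cause was not tested. The number lower at 6 h than at 2 h was 2, ranged from 0 to 5 with each library left out and was 0 with only the 6 libraries compared. Over all IDs it was 5, 1 to 17 and 0 in these settings. The number higher in roots than in aerial parts at 6 h, 24 of 95, stayed within 17 to 29 under the alternatives run. It was 28 of 95 in the paired fit with the title number as replicate block. Without replicate 2 of both organs, which was added after seeing the data, it was 27 of 93. Calls among IDs with a root 2 h mean of at least 10 TPM moved more. They were 1157 of 6072 in the main fit, 1602 of 6072 with the block and 1817 of 6054 without replicate 2 of both organs. The small excess of the genes over these IDs therefore did not hold in every setting. The difference of 6 h responses between organs and the aerial change at 6 h gave 0 called genes in all settings tried, the former also with the replicate block. With the block, 6 genes instead of 4 were lower in roots than in aerial parts at 6 h. Over all IDs, the block moved the calls for the difference of responses from 9 to 16 larger in roots and from 4 to 10 smaller.

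The rule itself chose 97 to 187 IDs with a root 2 h replicate left out, an alternative added after seeing the data. It chose 143 IDs at a 2-fold and 77 at a 4-fold threshold, of which 69 and 60 were among the 100, and 150 and 75 at levels of 5 and 20 TPM, of which 90 and 65 were. Scaling to the listed total gave 129, of which 75 were shared, median-of-ratios scaling 112, of which 82 were, and the highest row of each ID 99, of which 97 were. Read depth, which limits low values most, is unknown from TPM.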

Other observations

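For 5 of the 100 genes an ID listed directly before or after, with the same first number, also met the root criterion at 2 h. Of all 34445 IDs, 1.45% have such a neighbour. These include the 5642 IDs at 0 in every library, and the share among expressed IDs alone was not computed. The files do not say what the digits of an ID encode. The largest case was Glyur006124s00045728, singled out after its values were seen, with 1.64, 0.65 and 2.57 TPM in root controls, 14.2, 29.9 and 148 TPM at 2 h, 1.81, 34.97 and 2.00 TPM at 6 h and 8.06, 9.90 and 3.17 TPM at 12 h. The ID listed directly before it, Glyur006124s00045727, had 20.7, 8.51 and 11.6 TPM in root controls, 312, 952 and 3529 TPM at 2 h, 93.5, 111 and 118 TPM at 6 h and 159, 458 and 156 TPM at 12 h. Replicate 3 was the highest at 2 h in both, and the second stayed above its controls in every salt library. The other 4 pairs begin with the numbers of Glyur000121s00009706, Glyur000137s00013331, Glyur000488s00030326 and Glyur002081s00034180.

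Among the 100 genes, 6 had every aerial group mean above every root group mean. The share over other IDs was not computed, so nothing is read from this number. One of the 6, Glyur000699s00025418, picked after its values were seen, had 0.53, 1.5 and 1.61 TPM in root controls and 22.1, 6.30 and 24.9 TPM in roots at 2 h. In aerial parts it had 118, 134 and 108 TPM in controls, 373, 353 and 281 TPM at 2 h and 158, 66.7 and 158 TPM at 6 h, so that its aerial libraries at 2 h all lay above the aerial controls, under the 3-fold threshold.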
